A study of Drosophila melanogaster with 3 samples.

Results

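The genes described here are 10 that encode abundant proteins of the Drosophila melanogaster embryo other than ribosomal proteins. They are the translation factor genes eEF1alpha1 and eEF2, Rack1 and Tctp, which are linked to translation, the cytoplasmic actin genes Act5C and Act42A, the tubulin genes alphaTub84B and betaTub56D, the polyubiquitin gene Ubi-p63E and the histone variant gene His3.3B. They were chosen by name, with earlier results of these data known, as genes known for strong expression in embryos. They make up 10 of the 13945 protein-coding genes on the main chromosome arms. They were set against the 88 ribosomal protein genes, to ask whether a gene that is strongly transcribed also carries a CG6254 peak. Transcription was not measured in the files analysed, so "highly transcribed" rests on general knowledge of these genes. The Rack1 protein binds the ribosome, though its gene is not named as one for a ribosomal protein.

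Binding of CG6254, a zinc finger protein, was measured by chromatin immunoprecipitation and sequencing (ChIP-seq) in 3 biological replicates of whole embryos, collected from 0 to 14 h of development with both sexes mixed. All came from 1 transgenic line that stably expresses CG6254 with green fluorescent protein (GFP) at its C-terminus, and chromatin was sheared by sonication to 200 to 800 bp and precipitated with an antibody against GFP. There was a single group, and whole embryos mix many cell types and stages, so a peak cannot be assigned to any of them. No untagged embryos were analysed here, and signal that would also arise without the tagged protein cannot be told apart from binding by it.

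Genes of the protein synthesis machinery often share a promoter type. In Drosophila, ribosomal protein genes and several translation factor genes start transcription at a pyrimidine-rich initiator called TCT, in place of the usual initiator, while other strongly expressed genes use a TATA box or other core elements. In mammals, the transcripts of the counterparts of eEF1alpha1, eEF2, Rack1 and Tctp start with a pyrimidine tract like those of ribosomal protein genes.

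The authors deposited 5 lists on the dm6 genome build that were used here. The list of reproducible peaks, selected with the irreproducible discovery rate (IDR), holds 4426 peaks with a signal from 147.508 to 15458.9, and these are the top 4426 of the pooled list. The pooled list and the list of each replicate hold 30000 peaks each and include background by design. Rank 1 is the peak with the highest signal in its own list. Signals from different lists were not compared, the read depth is not given in the sources used here, and no interval or test could be attached to a signal.

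Of the 10 highly transcribed genes, 6 had an IDR summit at most 500 bp from a transcription start site (TSS), against 60 of 88 ribosomal protein genes (68.2%) and 14.8% of all protein-coding genes. The 6 were Rack1, eEF2, His3.3B, eEF1alpha1, Act42A and Act5C. The remaining 4, alphaTub84B, betaTub56D, Ubi-p63E and Tctp, had none in their gene bodies either. Counting summits in the gene body therefore left the count at 6, and at 60 for the ribosomal protein genes, against 19.9% of all protein-coding genes and 16.5% of the 4912 genes whose length lay within the range of the 10. The share of the highly transcribed genes was thus several times that of protein-coding genes at large and close to that of ribosomal protein genes. The differences were not tested, and the genes were chosen with earlier results of these data known.

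**Figure D1:**
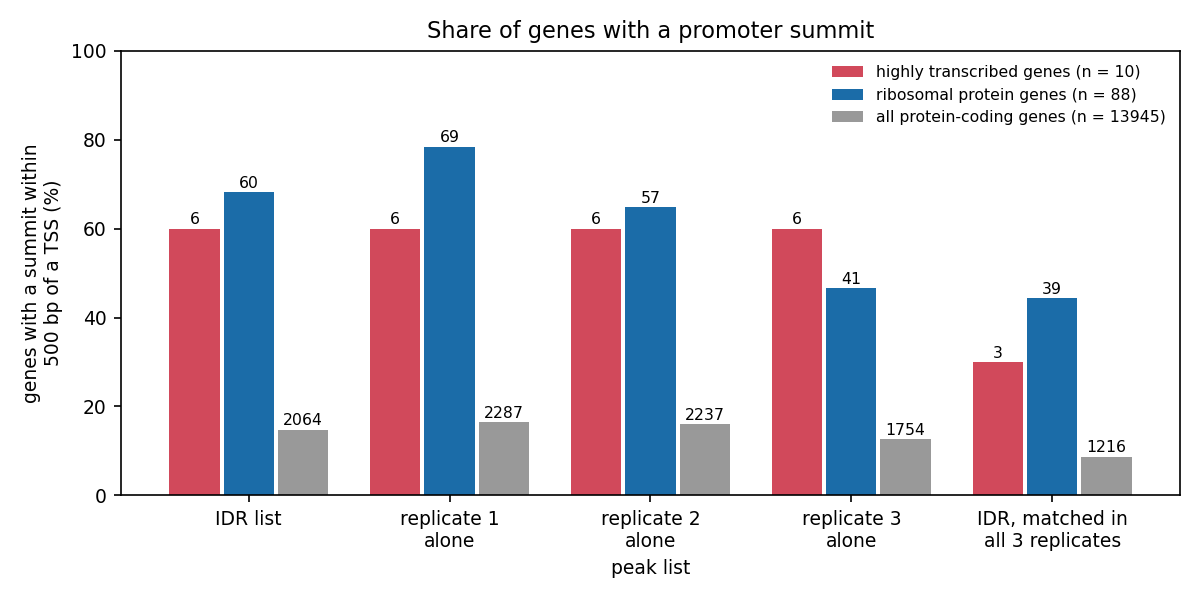
Bars give the percentage of genes with a summit within 500 bp of a TSS (y axis) in the IDR list, in the strongest 4426 peaks of each replicate and among IDR peaks matched in all 3 replicates (x axis), for highly transcribed, ribosomal protein and all protein-coding genes; numbers on the bars are gene counts. The highly transcribed genes stay at 6 of 10 in every single replicate and reach 3 of 10 when all 3 replicates must match.

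The number of genes was stable between replicates, while some of the genes differed. Among the strongest 4426 peaks of each replicate, 6 of the 10 highly transcribed genes had a promoter summit in replicate 1, in replicate 2 and in replicate 3. The ribosomal protein genes gave 69, 57 and 41 in the same order, and all protein-coding genes 16.4%, 16.0% and 12.6%. The 6 of replicate 2 were those of the IDR list. Replicate 1 held alphaTub84B in place of His3.3B, and replicate 3 held Ubi-p63E in place of Act42A. Only eEF1alpha1, eEF2 and Rack1 had an IDR promoter summit with a counterpart no more than 200 bp away in the top 4426 peaks of each replicate, which is 3 of 10, against 39 of 88 ribosomal protein genes (44.3%) and 8.72% of all protein-coding genes.

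Single replicates weighed on these counts. When a match in replicates 1 and 3 was asked for, without replicate 2, the count was 3 highly transcribed genes (eEF1alpha1, eEF2 and Rack1), 41 ribosomal protein genes and 9.42% of all protein-coding genes. Without replicate 1 the counts were 5 highly transcribed genes, 39 ribosomal protein genes and 9.66% of all protein-coding genes. Each group was smaller once matches were required, and the highly transcribed genes were fewest when replicate 2 was set aside.

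**Figure D2:**
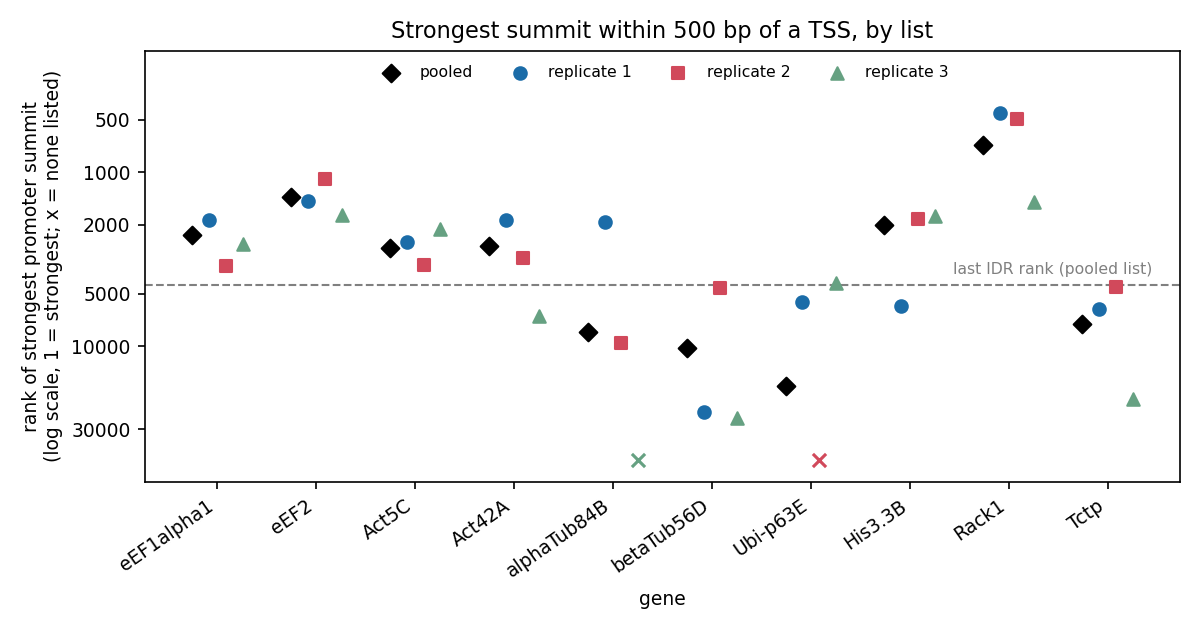
Each point is the rank of the strongest promoter summit of a gene (y axis, log scale, strongest at the top) in the pooled list and in each replicate list; crosses mark lists with no promoter summit at that gene. Rack1 and eEF2 stand high in every list, whereas the ranks of alphaTub84B, betaTub56D and Ubi-p63E differ widely between lists.

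The bound genes sat in the middle of the IDR list. Their strongest promoter summits ranked from 693 to 2716 with a median of 2145.5, against 22 to 4358 with a median of 1530.5 for the 60 bound ribosomal protein genes and a median of 1953 for all 2064 bound protein-coding genes. The median signal was 234.197 at the 6 highly transcribed genes, 290.537 at the ribosomal protein genes and 247.163 at all bound genes. None of the 10 came near the ribosomal protein gene RpS20, whose summit ranked 22 with a signal of 5418.47, and the next ribosomal protein genes, RpS24, RpL7 and RpS10b, ranked 325, 448 and 467. The weakest promoter summit in the IDR list at any of the 10 was a second one at Act5C, with a signal of 162.779 and rank 3830. The strongest summit at an unbound gene was that of Tctp, with a signal of 117.644 and rank 6421 in the pooled list, below the lowest IDR signal of 147.508.

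Rack1 encodes a scaffold protein that sits on the small ribosomal subunit, and it had the strongest promoter peak of the 10. The gene (FBgn0020618) lies on the minus strand at chr2L:7825347-7827315, and its IDR peak at chr2L:7827175-7827327 was 153 bp wide, against a median of 416 bp in the IDR list. The summit lay 1 bp upstream of the downstream one of its 2 TSSs, in the annotated 5' UTR. Its signal was 457.462 in the pooled list, where it ranked 693, and its ranks in replicates 1, 2 and 3 were 455, 491 and 1485. The strongest summits in those replicates lay at -1, +32 and +10 bp from that TSS, so that all replicates placed the peak at the start site. A TSS of the neighbour mts, which encodes a protein phosphatase subunit, lay 403 bp from the summit.

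The eEF2 gene encodes the factor that moves the ribosome along the mRNA after each peptide bond. The gene (FBgn0000559) occupies chr2L:21677913-21682164 on the minus strand, and its IDR peak spanned chr2L:21681901-21682316. The summit was 7 bp downstream of a TSS, in the 5' UTR, with a signal of 308.905 at rank 1385. Its ranks in replicates 1, 2 and 3 were 1464, 1087 and 1757. Replicates 1 and 2 had their summits at +9 and +13 bp from the same TSS, and replicate 3 at -34 bp, which is +14 bp from the other TSS of the gene.

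Rack1 and eEF2 were also the only genes of the 10 with a TCT initiator word at a TSS. The words searched were CTTT with C or T before it and C or T after it, on the gene's strand, lying within 6 bases before to 9 bases after any annotated TSS, and this search was chosen after seeing the data. It matched 2 of the 10 genes, 54 of 88 ribosomal protein genes (61.4%) and 2.13% of all protein-coding genes. The sequences shown are 30 bases on the gene's strand, 14 before to 15 after the TSS, with the words in capitals, for both genes and, for comparison, for the bound ribosomal protein genes RpL7 at rank 448 and RpS27 at rank 505. The stretch of RpS27 is at the second of its TSSs, while its summit lay 5 bp downstream of the first. The capitals of RpL7 also take in an overlapping TCTTTC that runs past the end of the searched window. They come from the RefSeq copy of the dm6 assembly, at chr2L:21682101-21682130 (minus strand), chr2L:7827231-7827260 (minus strand), chr2L:10201086-10201115 (plus strand) and chr3R:25247457-25247486 (minus strand).
eEF2: tcgctgcagcgcctcgcTCTTTCctgtcga
Rack1: actggaaccggaactgccTCTTTTtctgcc
RpL7: tatagcacgtttccggTCTTTCTTTCcctt
RpS27: tgcgatttaccccacttCCTTTTccgtgtt

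In eEF2 the word TCTTTC covered bases 3 to 8 after the annotated TSS. The IDR summit at +7 bp fell inside it, but the replicate summits at +9, +13 and -34 bp did not. In Rack1 the word TCTTTT covered bases 4 to 9 after the TSS, and the IDR summit at -1 bp lay just upstream. Both genes with the word were bound, and so were 4 of the 8 without it. Among ribosomal protein genes, 39 of 54 with the word were bound (72.2%) and 21 of 34 without it (61.8%). Among the other protein-coding genes, 51 of 241 with the word were bound (21.2%) and 1947 of 13606 without it (14.3%). The share bound was higher with the word than without it in each group, and these differences were not tested. The word was searched at any TSS, and the number of TSSs was not taken into account. Of all protein-coding genes, 26.3% of those with 2 or more TSSs were bound, against 10.6% of those with 1 TSS. A match is a description of the letters and was not tested as a site.

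Tctp encodes a small conserved protein linked to growth and translation, and it had no IDR summit. The gene (FBgn0037874) runs along the plus strand at chr3R:11210247-11211898 with 1 TSS. Its strongest promoter summit in the pooled list lay 125 bp upstream of the TSS with a signal of 106.669 at rank 7487, and the replicate lists ranked their strongest promoter summits 6118, 4550 and 19970. Those summits lay at -33, -362 and -318 bp, so that replicates 2 and 3 placed theirs close together and replicate 1 nearer the TSS. SdhC, which encodes a subunit of succinate dehydrogenase, has a TSS 273 bp from the pooled summit and 36 bp from the one at -362 bp. The promoter of Tctp is shown because it carries the pyrimidine words without a match by the rule. From 60 bases before to 19 after the TSS, at chr3R:11210187-11210266 on the plus strand, capitals mark TCTTTC and TCTTTT, neither of which lies wholly inside the searched window.
Tctp: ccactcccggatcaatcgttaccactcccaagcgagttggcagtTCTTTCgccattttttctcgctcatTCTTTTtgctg

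The strongest summit of Tctp in the pooled list was not at its promoter but 126 bp before its end, in the 3' UTR, and similar summits were listed in all 3 replicates. A pooled summit within 250 bp of the gene end was present at 3 of the 10 genes, against 12 of 88 ribosomal protein genes (13.6%) and 8.62% of all protein-coding genes, a window chosen after seeing the data. The other genes were alphaTub84B, 61 bp before its end, and Ubi-p63E, 208 bp before its end, where the gene Ccz1 has a TSS 311 bp away. None of the 3 summits was in the IDR list. An IDR summit at Act5C, of signal 157.605 and rank 4004, lay 260 bp before the end of that gene, just outside this window, and was matched in 1 replicate.

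eEF1alpha1 encodes the factor that brings aminoacyl-tRNA to the ribosome. The gene (FBgn0284245) lies on the plus strand of arm 2R from 11891135 to 11895762 and has 4 annotated TSSs, each with 1 transcript. Its IDR peak spanned 11891961 to 11892376, and the summit lay 47 bp downstream of the TSS at 11892122, in the 5' UTR. No IDR summit lay within 500 bp of the first TSS of the gene, which is 987 bp upstream of the bound one. The signal was 225.523 at rank 2278, and the replicate ranks were 1872, 3464 and 2576, with summits at +51, +8 and +49 bp. All replicates therefore placed the peak at the same internal start site.

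Peaks were also listed at other genes of translation elongation, and those of eEF1beta and eEF1gamma ranked above the peaks of eEF1alpha1 and eEF2. Of 7 elongation factor genes found in the annotation, 5 had an IDR promoter summit, against 14.8% of all protein-coding genes. The gene eEF1beta, which encodes a nucleotide exchange factor for eEF1alpha, ranked 63 with a signal of 2238.73 and its summit at -84 bp. Its ranks in replicates 1, 2 and 3 were 63, 68 and 59. The gene eEF1gamma, for another subunit of that exchange complex, ranked 348 with a signal of 637.543 and its summit at -13 bp. The gene eEF5, whose product helps the ribosome over difficult stretches, ranked 1866 in the pooled list with its summit at +1 bp, but ranked 851, 1814 and 10161 in the replicates. The genes eEF1alpha2 and eEF1delta had no promoter summit in the pooled list.

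Act5C encodes the main cytoplasmic actin of the fly and had 3 IDR summits, of which 2 were promoter summits, while no other of the 10 genes had more than 1. The gene (FBgn0000042) lies on the plus strand at chrX:5900861-5905399 with 2 TSSs. One IDR promoter summit lay 487 bp upstream of the first TSS with a signal of 201.709 at rank 2716. A TSS of the non-coding RNA gene lncRNA:CR45668 was nearer to it, 385 bp away. Another IDR promoter summit lay 85 bp downstream of the second TSS, in the 5' UTR, with a signal of 162.779 at rank 3830. The strongest promoter summits of replicates 1 and 2 were at the second TSS, at +54 and +83 bp with ranks 2521 and 3400. That of replicate 3 was upstream of the first TSS, at -476 bp with rank 2110. The replicates thus differed in which of the promoter summits led.

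A stronger peak stood beyond the 500 bp window of Act5C. It spanned chrX:5900063-5900284, and its summit was 696 bp upstream of the first TSS and 176 bp from a TSS of the non-coding RNA gene lncRNA:CR45668. Its signal was 544.029 at rank 483, and the replicate ranks of the corresponding summits were 488, 545 and 595. Its rank lay between 483 and 595 in every list, and the window of 500 bp leaves it out. It overlapped the IDR peak at chrX:5900166-5900581, which holds the promoter summit 487 bp upstream of the first TSS. The first promoter of Act5C, chrX:5900801-5900870 on the plus strand from 60 bases before to 9 after the TSS, is shown with its TATAAA in capitals, since no IDR summit lay closer to it than 487 bp. The bases around the upstream summit, chrX:5900115-5900215, are shown with the summit base in capitals, and 31.7% of them are G or C.
Act5C: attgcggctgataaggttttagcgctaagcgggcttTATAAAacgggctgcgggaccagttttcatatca
Act5C upstream summit: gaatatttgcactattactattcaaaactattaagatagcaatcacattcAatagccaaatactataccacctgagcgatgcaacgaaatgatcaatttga

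alphaTub84B encodes the most widely expressed alpha-tubulin and had no IDR summit. The gene (FBgn0003884) lies on the plus strand at chr3R:7086599-7088839 with 1 TSS. Replicate 1 placed a summit 27 bp downstream of the TSS with a signal of 67.7661 at rank 1925, well inside the strongest 4426 peaks of that list. Replicate 2 listed one at -74 bp with rank 9557, where the neighbour Tailor has a TSS 442 bp away, and replicate 3 listed no promoter summit. The pooled summit at +28 bp had a signal of 99.4216 at rank 8320. The peak thus rested on replicate 1. Its promoter, chr3R:7086539-7086608 on the plus strand over the same span as that of Act5C, also holds TATAAA, shown in capitals for comparison.
alphaTub84B: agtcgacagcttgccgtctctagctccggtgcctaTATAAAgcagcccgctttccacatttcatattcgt

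**Figure D3:**
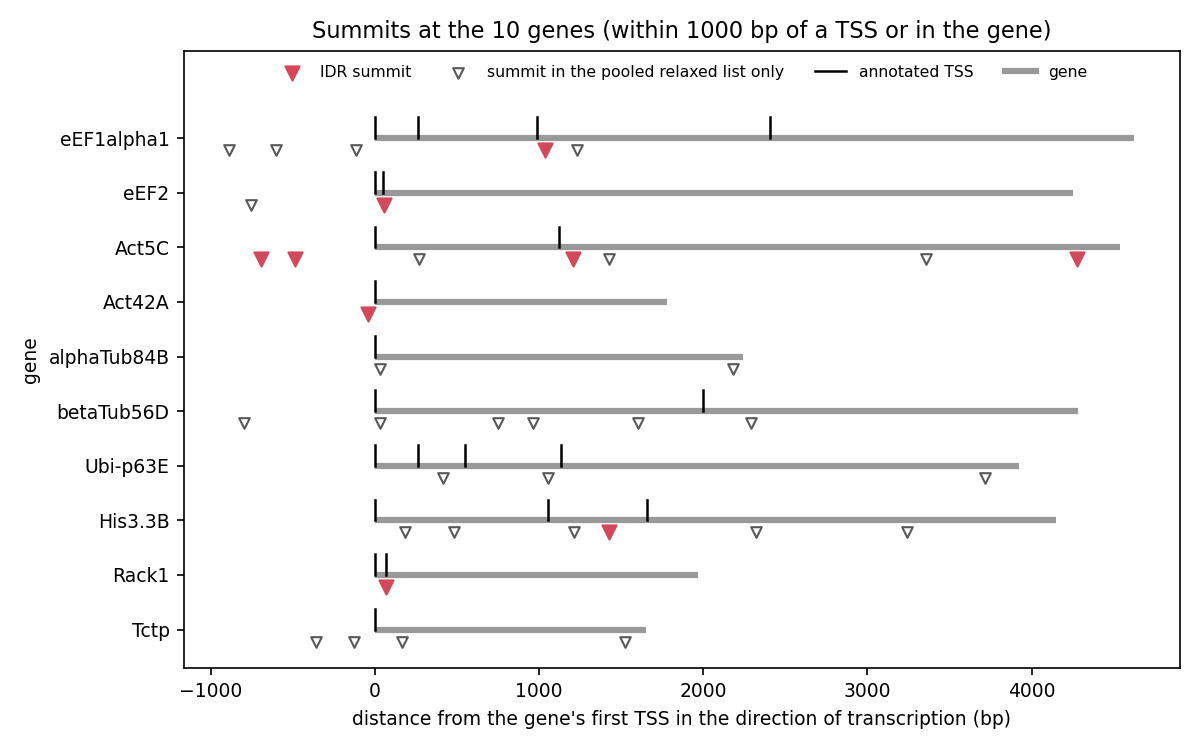
Grey bars are the 10 genes drawn from their first TSS (x axis, distance in bp along the direction of transcription), black ticks are annotated TSSs, filled triangles IDR summits and open triangles summits of the pooled list that are not in the IDR list. The summits of eEF2, Rack1 and Act42A lie near the first TSSs, that of eEF1alpha1 lies at an internal one, and Act5C carries 3 IDR summits at a promoter or in its body, with another drawn 696 bp upstream of its first TSS, outside the 500 bp window.

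The second cytoplasmic actin gene, Act42A (FBgn0000043), lies on the minus strand of arm 2R from 6013910 to 6015689. It had 1 IDR peak, with its summit 40 bp upstream of the single TSS, a signal of 205.274 and rank 2642. The replicates placed their summits at -37, -43 and -41 bp, but ranked them 1891, 3097 and 6669. The place was therefore shared by all replicates, and the strength in replicate 3 fell below the strongest 4426 peaks. betaTub56D (FBgn0284243), the main beta-tubulin gene of the embryo, lies on the same arm from 19447319 to 19451600 and had no IDR summit. Its strongest promoter summits ranked 10169 in the pooled list and 24006, 4648 and 25874 in the replicates, at -399, -230, -416 and +307 bp from its second TSS. They fell in introns and did not recur at one place with a high rank. Beyond the 500 bp window, the pooled list held a stronger summit at -796 bp from the first TSS, at rank 8346. A TSS of CG7744 lay 108 bp from it. Replicates 1, 2 and 3 listed summits at -815, -796 and -662 bp, with ranks 16399, 6115 and 14992.

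In the wider families, IDR promoter summits were listed at actin genes and at no tubulin gene. Of 6 actin genes, 3 had an IDR promoter summit, against 14.8% of all protein-coding genes. The third, besides Act5C and Act42A, was Act87E, a muscle actin gene, at rank 1548 with its summit at -337 bp and replicate ranks of 2607, 1449 and 1602. Of the 4 alpha-tubulin genes found in the annotation and the 5 beta-tubulin genes, none had one, against 14.8% of all protein-coding genes. In the pooled list, 2 of these alpha-tubulin genes and 3 of the beta-tubulin genes had a promoter summit of lower rank, against 43.0% of all protein-coding genes. These families are small and near-identical copies may share reads, so their counts are descriptions. With so few tubulin genes, finding none bound cannot be told apart from a share of 14.8%. The difference between actin and tubulin genes was not tested.

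Ubi-p63E encodes a chain of ubiquitin repeats that is cut into single ubiquitin molecules. The gene (FBgn0003943) lies on the minus strand at chr3L:3899259-3903184, has 4 TSSs and had no IDR summit. Its strongest promoter summit in the pooled list had a signal of 63.4909 at rank 16841, the lowest rank among the 10. Replicate 1 ranked its strongest promoter summit 5529, replicate 3 ranked one 4312, and replicate 2 listed none. Those summits lay at different TSSs, at -153 bp from the first and +59 bp from the TSS at 3902920. The neighbour Sc2 has a TSS 155 bp from the summit of replicate 1. Of the 4 ubiquitin genes, RpS27A, a fusion of ubiquitin with a ribosomal protein, had an IDR promoter summit, at rank 3640 and -30 bp, which is 1 of 4, against 14.8% of all protein-coding genes, while RpL40, the other fusion, had a pooled summit at rank 11354.

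His3.3B encodes the histone H3.3, which is placed in chromatin outside DNA replication. The gene (FBgn0004828) lies on the minus strand at chrX:9152523-9156669 and has 3 TSSs. Its IDR peak, chrX:9155036-9155451, had a signal of 242.871 at rank 2013, with the summit in an intron 232 bp upstream of the most internal TSS. Replicates 2 and 3 ranked their strongest promoter summits 1859 and 1793, at -232 bp from that TSS and at +268 bp from the middle TSS. Replicate 1 placed a summit of signal 37.4368 at -271 bp with rank 5932, and its strongest one, of rank 5884, was at the first TSS. The peak thus rested on replicates 2 and 3. The 101 bases around the IDR summit, chrX:9155194-9155294 on the minus strand, are shown with the summit base in capitals because they are intronic and poor in G and C (23.8%). The other H3.3 gene, His3.3A, had no promoter summit in the pooled list.
His3.3B intron summit: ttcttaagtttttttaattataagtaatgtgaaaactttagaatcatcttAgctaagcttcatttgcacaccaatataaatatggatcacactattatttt

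Summits at the bound genes lay close to a TSS. The median distance was 43.5 bp at the 6 highly transcribed genes, 24.0 bp at the 60 ribosomal protein genes and 154.5 bp at all 2064 bound protein-coding genes. Of the 6, 4 had their strongest promoter summit within 50 bp of a TSS, against 43 of 60 ribosomal protein genes (71.7%) and 13.4% of all bound genes. The 4 were Rack1, eEF2, Act42A and eEF1alpha1, and the others were His3.3B at 232 bp and Act5C at 487 bp. Among the 6, the 3 genes that work in translation were all within 50 bp, with eEF1alpha1 the farthest at 47 bp. The actin gene Act42A was nearer than eEF1alpha1, at 40 bp. Of the other bound elongation factor genes, eEF1gamma and eEF5 had summits at -13 and +1 bp, but eEF1beta, at rank 63, had its summit at -84 bp. A summit within 50 bp was thus neither shared by all bound elongation factor genes nor limited to genes of translation. The distance of 50 bp was chosen after seeing the data.

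**Figure D4:**
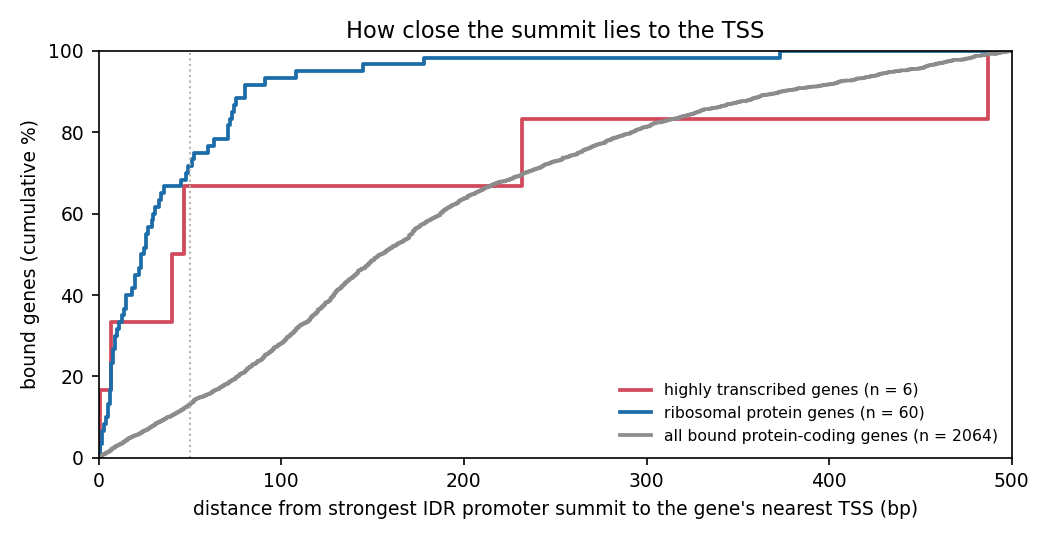
Lines give the cumulative percentage of bound genes (y axis) whose strongest IDR promoter summit lies within a given distance of the nearest TSS (x axis, bp), for highly transcribed, ribosomal protein and all bound protein-coding genes; the dotted line marks 50 bp. At 50 bp the highly transcribed genes have reached 66.7% and the ribosomal protein genes 71.7%, against 13.4% of all bound genes.

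The highly transcribed genes were longer and had more TSSs than most genes. Their median number of TSSs was 2.0, against 1.5 in ribosomal protein genes and 1.0 in all protein-coding genes, and their median length was 4036 bp, against 1344 and 2166 bp. Of the 7 with at least 2 TSSs, 5 were bound, against 30 of 44 such ribosomal protein genes and 26.3% of all 3699 such protein-coding genes. Of the 3 with 1 TSS, only Act42A was bound, against 30 of 44 such ribosomal protein genes and 10.6% of all such protein-coding genes. If the first TSS alone was used, 4 of the 10 were bound, against 60 of 88 ribosomal protein genes and 12.5% of all protein-coding genes. Act5C was among these 4 through its summit 487 bp upstream of that TSS. The peaks of eEF1alpha1 and His3.3B were counted through internal TSSs.

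In the relaxed lists nearly every one of the 10 had a promoter summit, but so did many other genes. The pooled list held one at all 10, against 80 of 88 ribosomal protein genes (90.9%) and 43.0% of all protein-coding genes. The relaxed lists of replicates 1, 2 and 3 held one at 10, 9 and 9 of them, at 81, 80 and 69 ribosomal protein genes and at 48.3%, 48.4% and 37.4% of all protein-coding genes. A weak summit at the tubulin genes, Ubi-p63E or Tctp is thus a common feature of these lists.

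Other abundantly expressed genes gave a share between those of ribosomal protein genes and of all protein-coding genes. Of 27 further housekeeping genes, 10 had an IDR promoter summit (37.0%), against 68.2% and 14.8%, and the difference was not tested. With gene bodies included the count was 15 of 27 (55.6%), against 60 of 88 ribosomal protein genes and 19.9% of all protein-coding genes. Among 11 glycolytic genes there were 5. They were Gapdh2 at rank 166, Hex-A at rank 444, Eno at rank 583, Pgk at rank 2363 and PyK at rank 3234. Among the remaining 16 there were 5 as well. They were the chaperone genes Hsp83 at rank 219 and Hsc70-4 at rank 4364, the myosin light chain gene sqh at rank 1356, the histone variant gene His2Av at rank 1874 and the ATP synthase gene blw at rank 2994. Strong peaks thus occurred among such genes, and the other genes of these lists had none in the IDR list near a TSS.

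Short motifs known from fly promoters were counted at the 10 genes. In 300 bases per gene, from 250 before to 50 after the first TSS on both strands, TATCGATA, the DRE motif, was found at Rack1 and Tctp, against 29.5% of ribosomal protein genes and 9.36% of all protein-coding genes. TATAAA was found at 7 of the 10, against 44 of 88 ribosomal protein genes and 45.8% of all protein-coding genes. The pyrimidine words CTTTTC and CTTTCC, which overlap the TCT words in part, were found at 5 and 3 of the 10, against 44.3% and 27.3% of ribosomal protein genes and 26.1% and 13.0% of all protein-coding genes. GGTCACAC was found at Act42A alone, against 15.9% and 7.7%, GAGAGA at alphaTub84B and His3.3B, against 4.55% and 12.3%, and CAGCTG at none, against 7.95% and 17.7%. Around the IDR summits, 50 bp to each side, CTTTTC or CTTTCC was found at eEF2 and Act42A, which is 2 of 6, against 28 of 60 ribosomal protein genes (46.7%) and 12.8% of all bound genes. Bound and unbound members of the 10 both carried TATAAA, TATCGATA and GAGAGA, so none of these motifs went with a peak in every case.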

How the data were processed

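ChIP-seq peaks of GFP-tagged CG6254 were taken from 5 deposited lists on dm6, the IDR list, the pooled list and 1 list for each of 3 replicates. Per the readme texts deposited with the lists, each replicate list was derived from the alignments of 1 replicate and 1 file shared by all, the pooled list from all 3 alignments and that file, and the IDR list from those lists. The authors deposited a signal for each peak, on an unstated scale, and it served only to rank and describe peaks inside a list. The summit is the deposited offset added to the start of the peak, with positions counted from 1. Not given in the sources used here were the read depth, the tools for alignment and peak calling and the IDR threshold. The lists on dm3 were not used, and 0 columns of other samples were left out.

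Genes and TSSs came from Ensembl release 115 of the same assembly, on arms 2L, 2R, 3L, 3R, 4 and X, and sequence from RefSeq. Ribosomal protein genes were those whose symbols begin with RpL, RpS or RpLP and a digit, plus sta. A summit within 500 bp of any TSS of a gene was a promoter summit and counted for every such gene. An IDR summit was matched in a replicate if 1 of its top 4426 peaks had a summit no more than 200 bp away. Counts, ranks and distances are descriptions, and no test was run. The genes and the gene lists were chosen with earlier results of these data known. The text names all 10 genes, the 4 ribosomal protein genes with the strongest promoter summit, every family member with an IDR promoter summit, and neighbours whose TSS lies within 500 bp of a summit reported for the 10. RpS27, His3.3A, RpL40, eEF1alpha2 and eEF1delta were named after their values were seen. Listed genes alphaTub90E and eEF3 were not matched to the annotation, and Jafrac1 was found as Prx2. The assignment of summits to genes was tested on simulated data. Alternatives were windows of 50 (added after seeing the data), 200 and 1000 bp, match distances of 100 and 400 bp, the first or the nearest TSS alone, a TSS inside the peak interval, the strongest 2213 peaks, single replicates and leaving out each replicate. Python 3.11.15, pandas 2.3.3, numpy 2.4.6, Biopython 1.88 and matplotlib 3.10.9 were used.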

Additional observations from a re-analysis of the deposited data

How the results depend on the processing

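Some settings moved a count by more than 1.5 times or shifted a median rank, and the cause was not tested beyond each setting's own construction. With the strongest 2213 IDR peaks alone, 3 highly transcribed genes, 39 ribosomal protein genes and 8.28% of all protein-coding genes had a promoter summit, and the counts with gene bodies were also 3 and 39. When each replicate was left out in turn, the highly transcribed genes numbered 3 to 5 with a promoter summit and 3 to 5 with gene bodies included, the ribosomal protein genes 39 to 54 by either rule, and all protein-coding genes 9.42% to 10.9%. The replicate left out still shaped the summits and signals that were kept. A TSS inside the peak interval gave 9.04% of all protein-coding genes, with 5 highly transcribed and 58 ribosomal protein genes. A window of 50 bp, chosen after seeing the data, gave 2.17% of all protein-coding genes, with 4 highly transcribed and 43 ribosomal protein genes. The median rank of the strongest summit over the 10 genes, at a promoter or in a gene body, was 2679 in the pooled list. It was 2223, 3432 and 3444 in replicates 1, 2 and 3. Other settings moved counts less. Windows of 200 and 1000 bp gave 5 and 6 highly transcribed genes, 59 and 61 ribosomal protein genes and 9.91% and 17.8% of all protein-coding genes. Match distances of 100 and 400 bp left 3 and 4 highly transcribed genes matched in all 3 replicates. The added gene was Act5C, matched in replicate 1 through the summit of rank 488 that belongs to the stronger peak 696 bp upstream. Without replicate 1, Act5C was kept through the summit of rank 545 in replicate 2, which belongs to that same upstream peak.

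No paired analysis was possible because the 3 replicates form a single group. No read depth was given, so whether a gene without a peak lacked binding or depth cannot be told apart.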
